A study of Mus with 4 samples.

Results

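Axon guidance ligands and receptors were followed through the cells of the mouse dorsal root ganglion (DRG) to find which cell types held the ligand transcripts and which neuron subtypes held the receptor transcripts, in injured and in naive animals. The genes were taken by symbol, as every semaphorin, plexin, neuropilin, slit, robo, netrin, Unc5, ephrin and Eph gene, with Dcc, among the 31253 genes listed in the count matrices. The rule found 74 symbols. Of these, 35 were ligands, made up of 20 semaphorins, 3 slits, 4 netrins and 8 ephrins, and 34 were receptors, made up of 11 plexins and neuropilins, 4 robos, 5 genes of Dcc and Unc5, and 14 Eph receptors. The other 5 (Unc50, Unc5cl and 3 antisense transcripts of Plxna4) matched by spelling alone and were left out of the counts of ligands and receptors.

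Single-cell RNA was measured by droplet sequencing from the 3′ end in left L4 and L5 DRGs of male C57BL/6J wild-type mice, aged 8 weeks. The CCI group had chronic constriction injury, a model of neuropathic pain made by loosely ligating the sciatic nerve, and was taken on day 3. The CON group was naive. There were 2 libraries a group, CCI1, CCI2, CON1 and CON2. No library came from sham-operated mice, so nerve injury and surgery cannot be told apart, and the sources used here do not say how many mice a library pooled or whether the libraries of a group came from separate mice, so a p-value here covers only the spread from library to library, which may be technical.

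Axon guidance molecules steer growing axons by attracting or repelling the growth cone. Semaphorins act through plexins, and the secreted class 3 semaphorins through neuropilins held together with plexins, slits act through robos, netrins through Dcc and Unc5 proteins, and ephrins, which are bound to the membrane, through Eph receptor tyrosine kinases. In adult ganglia many of these genes stay on after the axons have reached their targets, and in peripheral nerve repair they are known for effects on Schwann cell sorting, blood vessel growth and the path of regrowing axons.

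A total of 35113 cell barcodes passed the filters, 11155 in CCI1 and 10602 in CCI2, against 10743 in CON1 and 2613 in CON2. The median depth of these cells was 3478 and 4312 UMIs in the CCI libraries, against 2398 and 7939 UMIs in the CON libraries, so CON2 stood apart with fewer and deeper cells. Any 2 libraries shared between 8 and 29 barcodes. The cells were clustered without the guidance genes and named by fixed marker lists, which gave 1897 and 1069 neurons in the CCI libraries, against 1283 and 254 in the CON libraries, together with satellite glia, myelinating Schwann cells, non-myelinating Schwann cells, fibroblasts, pericytes, immune cells and endothelial cells. Neuron markers were also detected in cells of the other types, and whether as free neuronal RNA or through doublets was not tested. The median level of 8 neuron markers in the 7 other cell types was 22.7 to 52.1% of their level in neurons in CCI1 and 8.6 to 22.1% in CCI2, against 20.5 to 51% in CON1 and 1.8 to 3.48% in CON2. In the other direction, the median level of other cell types' markers in neurons, against their own cell type, was 0.948 to 2.09% for satellite glia and 51.2 to 73.3% for non-myelinating Schwann cells, whose list holds genes that neurons express as well, such as L1cam and Ncam1. For the other 5 cell types it was 0.0327 to 0.279%. A neuron-rich gene seen at such shares in another cell type is therefore read as background here. Levels are given as CPM, the UMIs of a gene divided by all UMIs of that cell type in that library without mitochondrial genes, scaled to 1000000, and they compare 1 gene between cell types, not 1 gene with another. In sums over a cell type, a change in the mix of its cells and a change of the RNA in each cell cannot be told apart, so the levels within neuron subtypes are given beside them.

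All 35 ligands had at least 30 UMIs over the cell types. Non-neuronal cells held the highest level of 33 of them, averaged over the 4 libraries. A level is a share of the UMIs of a cell type, so a lower level in neurons need not mean fewer transcripts. Neurons had a median of 42432 and 56244 UMIs a cell in CCI and 31804 and 110394 in CON. Endothelial cells had 6647 and 8045 in CCI and 4572 and 13190 in CON. Fibroblasts led for 11 ligands, myelinating Schwann cells and endothelial cells for 7 each, and immune cells, pericytes, satellite glia, non-myelinating Schwann cells and neurons for 2 each. The leading cell type was the same in all 4 libraries for 22 of the 35, and for 16 it lay above the next cell type with no overlap between libraries. The CCI mean and the CON mean named the same leading cell type for 29 of the 35. These levels come from clusters of the same cells, so they are a description with no test.

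**Figure D1:**
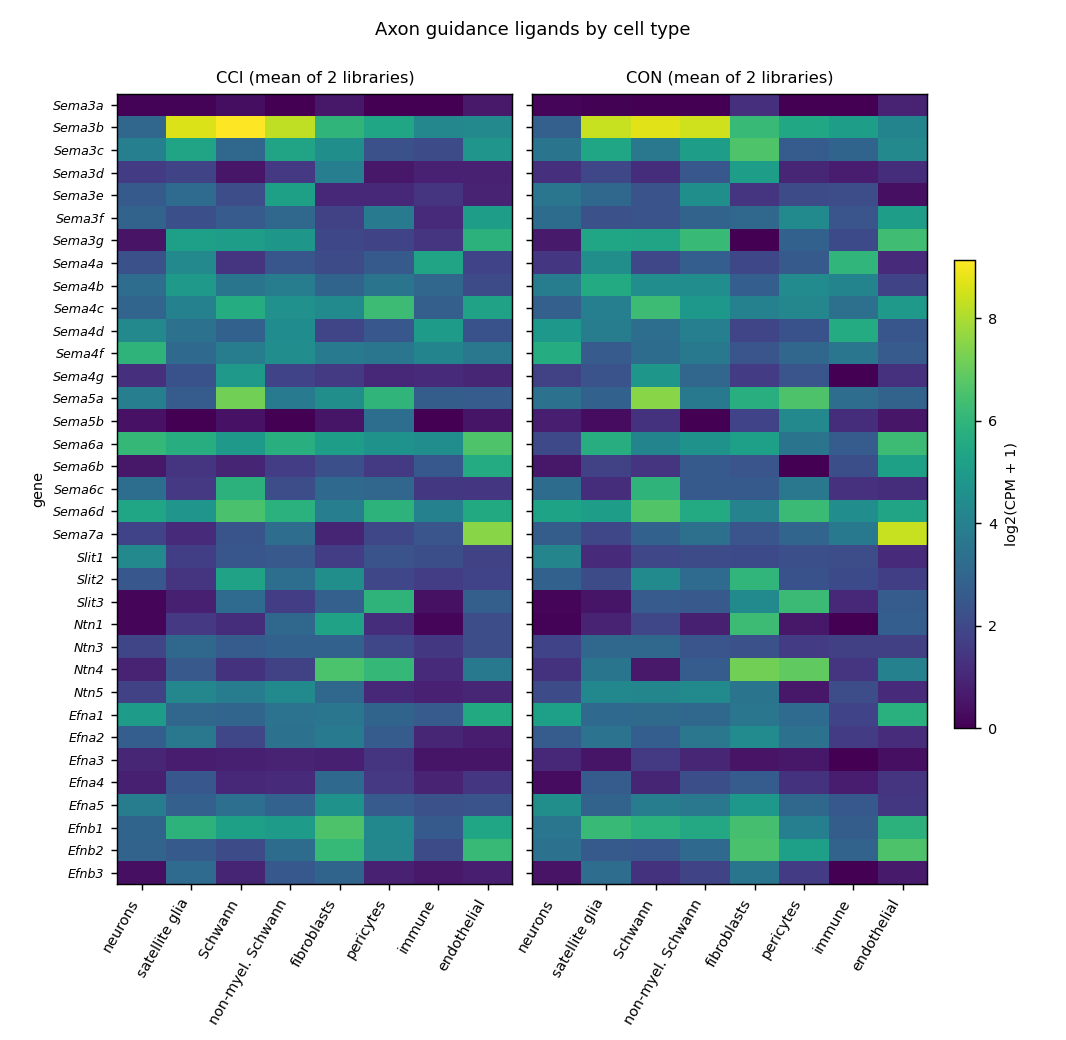
Level of each of the 35 ligands (vertical axis) in each cell type (horizontal axis), as log2 of the mean CPM of 2 libraries plus 1, with CCI on the left and CON on the right. Sema3b is brightest in the 3 glial cell types, Sema7a in endothelial cells, and Sema6a in neurons is bright in CCI only.

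Among the semaphorins, Sema3b, a secreted ligand of neuropilin and plexin receptors, was at 498 and 626 CPM in Schwann cells of the CCI libraries, against 358 and 485 CPM in those of the CON libraries. Satellite glia held 374 and 422 CPM in CCI and 286 and 376 CPM in CON. Neurons were at 7.13 and 6.93 CPM in CCI and 8 and 3.89 CPM in CON. The glial cells that wrap neurons and axons thus held most Sema3b in every library. The neuronal values are of the order that satellite glia markers reach in neurons, and cannot be told apart from that background. In Schwann cells both CCI libraries were above both CON libraries, in satellite glia the groups overlapped, and neither difference passed the test. Sema5a, a transmembrane semaphorin with thrombospondin repeats, also led in Schwann cells, at 174 and 118 CPM in CCI and 220 and 140 CPM in CON. Sema6d, another transmembrane semaphorin, was at 83.4 and 99.3 CPM in Schwann cells of CCI libraries and 96.6 and 103 CPM in those of CON libraries, and neurons held 47.5 and 35.9 CPM in CCI and 47.4 and 29.5 CPM in CON.

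Endothelial cells led for Sema7a, a GPI-anchored semaphorin that binds Plxnc1 (mm10, chr9:57939596-57962865). Its level was 235 and 131 CPM in CCI endothelium and 352 and 305 CPM in CON endothelium, with both CCI libraries below both CON libraries. The difference did not pass the test, at a log2 fold change of -0.74 (unadjusted p = 0.0616, edgeR's quasi-likelihood test). Endothelial cells also led for Sema6a, a transmembrane semaphorin that binds Plxna2 and Plxna4, at 96.6 and 101 CPM in CCI and 80.9 and 70.3 CPM in CON. In the CON libraries satellite glia were next for Sema6a with 42.5 and 58.8 CPM and neurons were the lowest, while in the CCI libraries neurons stood at 78.8 and 53.8 CPM, as described further on. Immune cells led for Sema4a, a semaphorin known from T cell responses, at 41.3 and 37.7 CPM in CCI and 47.7 and 78.8 CPM in CON.

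Of the 7 slits and netrins, 4 were highest in fibroblasts or pericytes over the mean of the 4 libraries (Slit2, Slit3, Ntn1 and Ntn4), while Slit1 was highest in neurons, Ntn3 in satellite glia and Ntn5 in non-myelinating Schwann cells. Slit3, a secreted robo ligand, was at 66 and 54.4 CPM in CCI pericytes and 51.3 and 97.4 CPM in CON pericytes. Slit2 reached 28.1 and 15.9 CPM in CCI fibroblasts and 37.1 and 89.3 CPM in CON fibroblasts, while Schwann cells held 49 and 26.6 CPM in CCI and 25.4 and 13.7 CPM in CON, so the 2 cell types overlapped and their order turned between the groups: Schwann cells were above fibroblasts in both CCI libraries and below them in both CON libraries. That turn was not tested. Ntn1, the netrin that acts through Dcc and Unc5 receptors, was at 39.4 and 34.6 CPM in CCI fibroblasts and 52.9 and 97.7 CPM in CON fibroblasts. Ntn4, a netrin of basement membranes, was at 91.6 and 93.2 CPM in CCI fibroblasts and 102 and 190 CPM in CON fibroblasts, and pericytes came close with 86.9 and 46.1 CPM in CCI and 112 and 125 CPM in CON. For both netrins the CCI fibroblasts were below the CON fibroblasts in every library, and neither passed the test. Ntn5 was low everywhere, at 12.6 and 25.3 CPM in CCI non-myelinating Schwann cells and 5.8 and 33.4 CPM in CON ones, beside 17 and 18.9 CPM in CCI satellite glia and 11.2 and 25.2 CPM in CON satellite glia, and these do not differ beyond their spread.

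Of the ephrins, Efnb1, a transmembrane ligand of EphB receptors, was highest in fibroblasts, at 92.1 and 97.7 CPM in CCI and 96.3 and 75.4 CPM in CON, with satellite glia at 52.6 and 65.9 CPM in CCI and 63.3 and 77.5 CPM in CON. Efnb2, which is known from arteries, was at 64 and 81.4 CPM in CCI endothelial cells and 111 and 80.9 CPM in CON endothelial cells. Fibroblasts held 73.9 and 63.8 CPM of it in CCI and 75.8 and 103 CPM in CON, so these 2 cell types overlapped. The GPI-anchored Efna1 was at 54.9 and 37.1 CPM in CCI endothelium and 55.3 and 55.4 CPM in CON endothelium, not far above neurons, which held 32.5 and 32.4 CPM in CCI and 38 and 31.7 CPM in CON. Efna5 was spread in the same way, at 21.2 and 28.2 CPM in CCI fibroblasts and 26.1 and 30.7 CPM in CON fibroblasts, beside 14 and 13.1 CPM in CCI neurons and 21.4 and 22.1 CPM in CON neurons. None of these 4 ephrins passed the test in any cell type.

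The neurons were split by marker lists into NP1-like and NP2-like (non-peptidergic), SST-like (which express Sst and Nppb), PEP1-like and PEP2-like (peptidergic), Trpm8-like (cold-sensing), cLTMR-like (C-fiber low-threshold mechanoreceptors) and NF2-like (neurofilament-rich) neurons. A further CIP-like group, named by the markers of a CCI-induced population, held 414 and 235 neurons in the CCI libraries, against 9 and 1 in the CON libraries. It was therefore described only in CCI. In CON2 the PEP2-like neurons were only 4 cells, SST-like 10, Trpm8-like 13, NF2-like 14 and NP2-like 17, and the 81 PEP2-like cells of CON1 had a median of 9832 UMIs, against 50650 UMIs in those of CCI1.

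With the CIP-like neurons set aside, 30 of the 34 receptors had at least 30 UMIs over the 8 subtypes. NF2-like neurons led for 10 receptors, PEP2-like for 6, PEP1-like and Trpm8-like for 4 each, NP1-like and cLTMR-like for 2 each, and NP2-like and SST-like for 1 each. A marker list for NF1 neurons, also neurofilament-rich, named none of the clusters used, so NF2-like neurons were not compared with an NF1-like group. With clusters made without integration, that list named a cluster of 76 cells. Whether such cells lay within the NF2-like group was not tested. A cluster of 197 cells met the NF2 list but stayed unnamed for few UMIs. The same subtype led in all 4 libraries for 16 of the 30 and stood clear of the next with no overlap for 8. The CCI and CON means named the same leading subtype for 20 of the 30. Robo4, a receptor known from blood vessels, had too few UMIs in neurons to be placed. Endothelial cells held 138 and 148 CPM in CCI and 152 and 174 CPM in CON, and neurons held 0.122 and 0.232 CPM in CCI and 0.177 and 0.0695 CPM in CON.

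**Figure D2:**
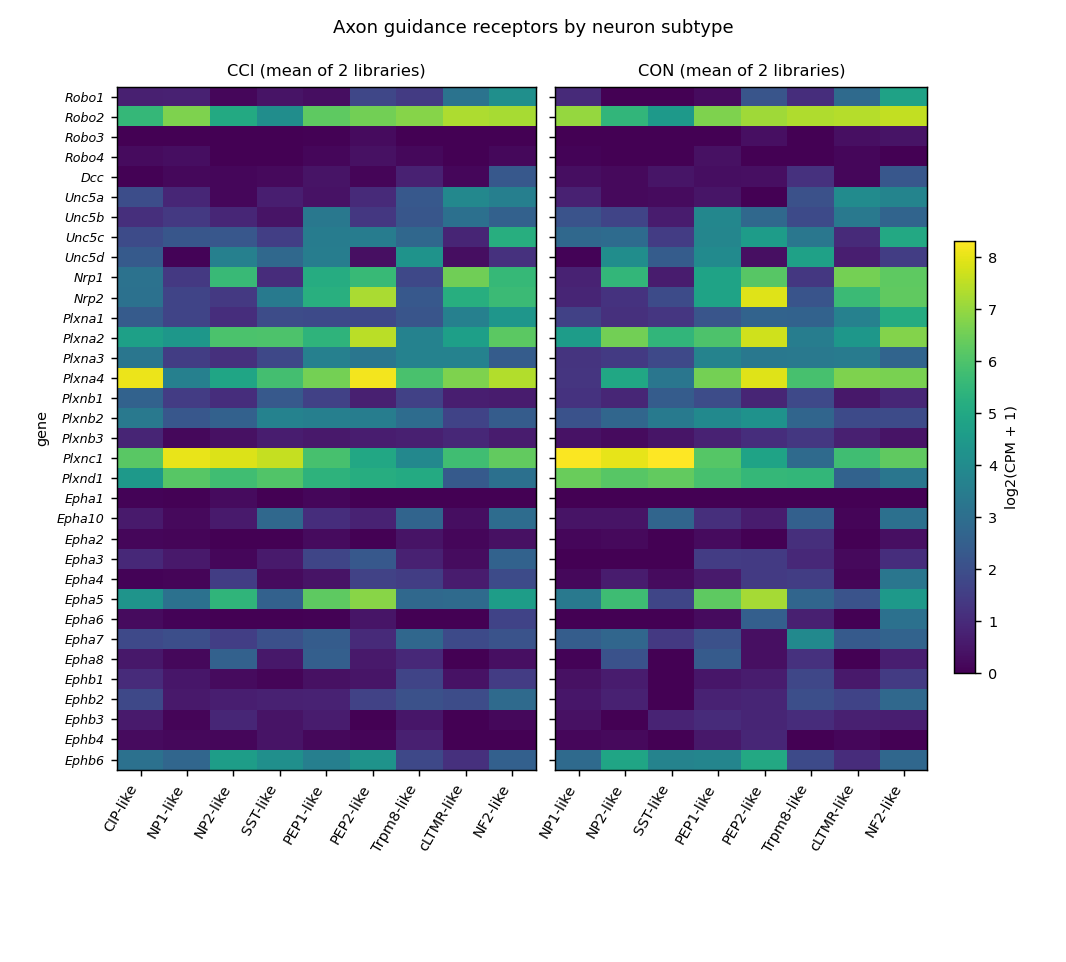
Level of each of the 34 receptors (vertical axis) in each neuron subtype (horizontal axis), as log2 of the mean CPM of 2 libraries plus 1, with CCI on the left and CON on the right and the CIP-like neurons in CCI only. Plxnc1 is brightest in NP1-like, NP2-like and SST-like neurons, Plxna4 in PEP2-like and CIP-like neurons and Robo2 in NF2-like and cLTMR-like neurons.

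Plexins and neuropilins divided the neuron subtypes. Plxnc1, the receptor of Sema7a (mm10, chr10:94790866-94945015), was at 311 and 211 CPM in CCI NP1-like neurons and 326 and 287 CPM in CON NP1-like neurons. SST-like neurons held 207 and 179 CPM in CCI and 325 and 313 CPM in CON, and NP2-like neurons 269 and 199 CPM in CCI and 260 and 259 CPM in CON. These 3 subtypes overlapped, and Trpm8-like neurons lay far below them at 13.8 and 14 CPM in CCI and 10.7 and 1.89 CPM in CON. Over all neurons Plxnc1 was at 132 and 86.3 CPM in CCI and 187 and 143 CPM in CON, both CCI libraries below both CON libraries, and did not pass the test (log2 fold change -0.52, edgeR quasi-likelihood adjusted p = 0.259). Plxnd1, the receptor of Sema3e, had its highest mean in NP1-like neurons, at 84.9 and 56.2 CPM in CCI and 93.6 and 75 CPM in CON. NP1-like neurons led for it in only 2 of the 4 libraries, and SST-like neurons overlapped them at 65.4 to 83.25 CPM. It was lowest in cLTMR-like neurons at 4.95 and 3.29 CPM in CCI and 5.63 and 4.57 CPM in CON. The cLTMR-like neurons instead held the ligand, with Sema3e at 62.8 and 50.1 CPM in CCI and 65.3 and 54.3 CPM in CON.

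The neuropilins, which bind the class 3 semaphorins, led in different subtypes. Nrp1 led in cLTMR-like neurons, at 103 and 78.3 CPM in CCI and 114 and 76.1 CPM in CON, and was near 0 in NP1-like neurons, at 1.98 and 1.23 CPM in CCI and 1.34 and 0.141 CPM in CON. Nrp2 (mm10, chr1:62703317-62818692) led in PEP2-like neurons, at 162 and 146 CPM in CCI and 263 and 218 CPM in CON. NF2-like neurons came next for both neuropilins. They held Nrp1 at 30.45 to 100.3 CPM over the libraries, which overlapped the cLTMR-like neurons, and Nrp2 at 34.84 to 121.2 CPM, below the PEP2-like neurons. The CCI and CON libraries overlapped for Nrp1 and did not for Nrp2, but PEP2-like neurons were too few in CON2 for a test. Outside neurons Nrp1 was highest in endothelial cells, at 289 and 244 CPM in CCI and 367 and 457 CPM in CON, where Plxnd1 was also highest, at 106 and 120 CPM in CCI and 171 and 207 CPM in CON. Outside neurons Nrp2 had no clear leader: fibroblasts held 120 and 148 CPM in CCI and 125 and 299 CPM in CON, the highest mean of the 4 libraries but the top level in only 1 of them, and endothelial cells held 104 and 194 CPM in CCI and 107 and 106 CPM in CON. Non-myelinating Schwann cells held 136 and 98.7 CPM of Nrp2 in CCI and 135 and 74 CPM in CON.

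Robos, Dcc and Unc5c shared the NF2-like neurons. Robo2 was at 163 and 135 CPM in CCI NF2-like neurons and 187 and 192 CPM in CON ones, with cLTMR-like neurons beside them at 154 and 159 CPM in CCI and 177 and 156 CPM in CON. SST-like neurons were lowest, at 18.2 and 13.4 CPM in CCI and 24.1 and 18.6 CPM in CON. Over all neurons Robo2 was at 86.6 and 67.2 CPM in CCI and 134 and 107 CPM in CON, with no overlap, and did not pass the test (log2 fold change -0.57, edgeR quasi-likelihood adjusted p = 0.148). Slit2, a ligand of Robo2, was also highest among neurons in the NF2-like ones, at 53.2 and 39.6 CPM in CCI and 102 and 62.7 CPM in CON. Of the netrin receptors, Unc5b was highest in PEP1-like neurons, at 11.3 and 6.99 CPM in CCI and 15.7 and 11.3 CPM in CON. The cLTMR-like neurons overlapped them for Unc5b at 6.189 to 11.26 CPM, and with clusters made without integration NF2-like neurons led for it. Unc5c and Dcc were picked after their values were seen, as the netrin receptors that led in NF2-like neurons. Unc5c was at 40.9 and 32.2 CPM in CCI and 32.4 and 30.7 CPM in CON, and Dcc, the attractive netrin receptor, only at 3.74 and 4.02 CPM in CCI and 4.18 and 3.48 CPM in CON.

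Among the Eph receptors, Epha5 led in PEP2-like neurons at 145 and 82.4 CPM in CCI and 197 and 94 CPM in CON, with PEP1-like neurons next at 89.3 and 60.3 CPM in CCI and 89 and 61.1 CPM in CON, and the 2 subtypes overlapped. Non-myelinating Schwann cells were the other holders of Epha5, at 67.2 and 89.5 CPM in CCI and 58 and 79.8 CPM in CON. Ephb6, an Eph protein whose kinase domain is inactive, was highest of all in Schwann cells, at 59.9 and 65.7 CPM in CCI and 42.8 and 79.4 CPM in CON. Among neurons its mean of the 4 libraries was highest in NP2-like ones, at 23.7 and 23.9 CPM in CCI and 26.2 and 30.7 CPM in CON. PEP2-like neurons overlapped them at 17.26 to 36.47 CPM and had the higher CON mean. Epha4 and Ephb4 were endothelial. Epha4, which binds both classes of ephrin, was at 92.8 and 74.8 CPM in CCI endothelium and 90.4 and 97.7 CPM in CON endothelium, and Ephb4, the venous partner of Efnb2, was at 54 and 46.1 CPM in CCI endothelium and 44 and 75.1 CPM in CON endothelium. In neurons Epha4 did not exceed 0.974 CPM and Ephb4 did not exceed 0.265 CPM in any library.

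The comparison of CCI with CON asked which guidance genes changed after injury, in each cell type over its summed UMIs. In neurons, 61 of the 69 ligands and receptors passed the filter on low counts and could be tested. Epha1, Epha2, Ephb4, Ntn1, Robo3, Robo4, Sema3a and Slit3 did not pass. By edgeR's quasi-likelihood test with Benjamini-Hochberg adjustment over all 15587 genes, 4 of the 61 were higher in CCI (Sema6a, Plxna4, Sema4a and Epha3) and 1 was lower (Sema7a), which is 8.2% of them, beside 5.21% of all genes tested (4.42% higher and 0.789% lower). At an unadjusted p under 0.05 there were 19 of 61, or 31.1%, beside 18.2% of all genes. The median log2 fold change of the 61 was -0.18, beside -0.02 over all genes, and 26 were positive and 35 negative. Over all genes 689 rose and 123 fell, and with DESeq2 810 rose and 301 fell.

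**Figure D3:**
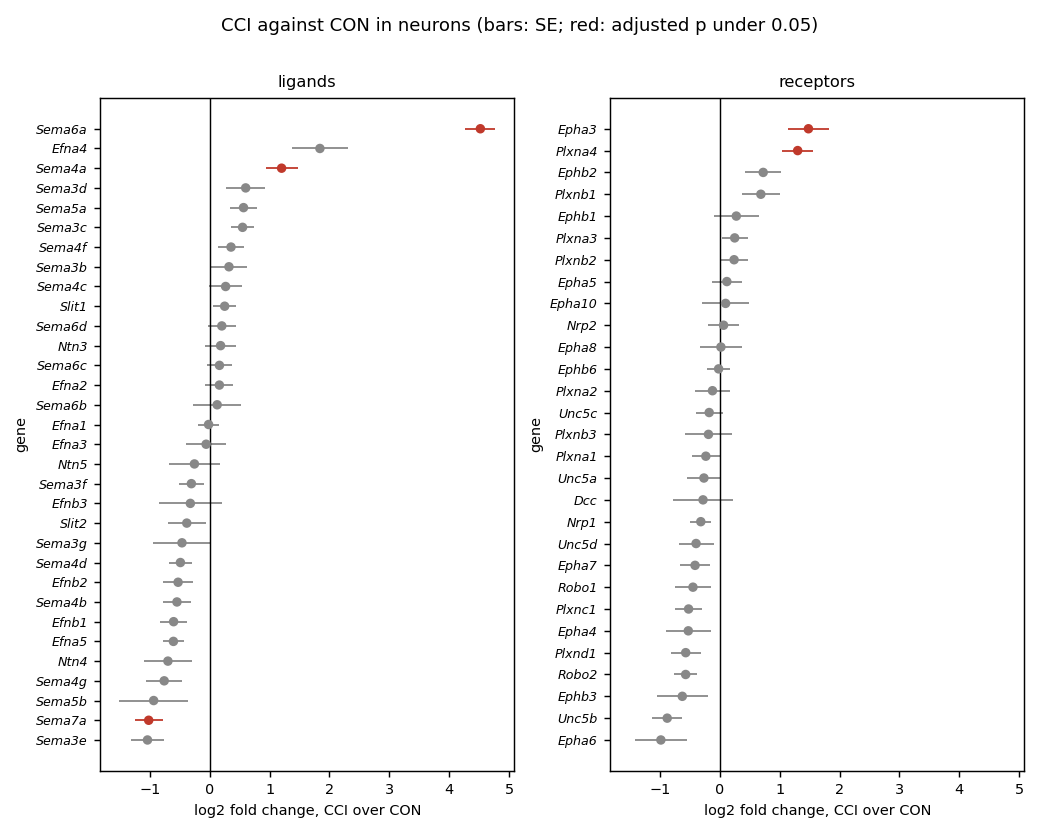
Log2 fold change of CCI over CON in neurons (horizontal axis) for the 32 ligands (left) and 29 receptors (right) tested by edgeR over 2 libraries a group. Bars are standard errors, and red marks an adjusted p under 0.05. Sema6a stands apart at 4.52, and the other 4 that passed an adjusted p of 0.05 lie between -1.02 and 1.48.

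Sema6a showed the largest change among the ligands and receptors tested in neurons. It was at 78.8 and 53.8 CPM in CCI neurons, against 3.43 and 2.64 CPM in CON neurons. Both CCI libraries were far above both CON libraries, and the fitted log2 fold change was 4.52 ± 0.25 (SE), a 22.9-fold difference (adjusted p = 3.25e-05, edgeR's quasi-likelihood test). Across the 11 alternative settings its adjusted p ran from 5.06e-70 to 5.73e-05. Endothelial Sema6a, in contrast, was at 96.6 and 101 CPM in CCI and 80.9 and 70.3 CPM in CON (log2 fold change 0.52, unadjusted p = 0.0851), so that neurons of the CCI libraries held levels of the same order as the endothelium.

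Plxna4, a plexin that binds Sema6a directly and class 3 semaphorins together with neuropilins (mm10, chr6:32144543-32588192), was at 177 and 108 CPM in CCI neurons, against 74.4 and 48.3 CPM in CON neurons. The groups did not overlap, and the log2 fold change was 1.30 ± 0.26 (SE), or 2.45-fold (adjusted p = 0.0268, edgeR's quasi-likelihood test). It lost the call in 1 of 11 settings, without CCI1, at an adjusted p of 0.0899. Neurons held more Plxna4 than any other cell type in all 4 libraries, with endothelial cells next at 44.1 and 34.7 CPM in CCI and 34.5 and 27 CPM in CON.

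**Figure D4:**
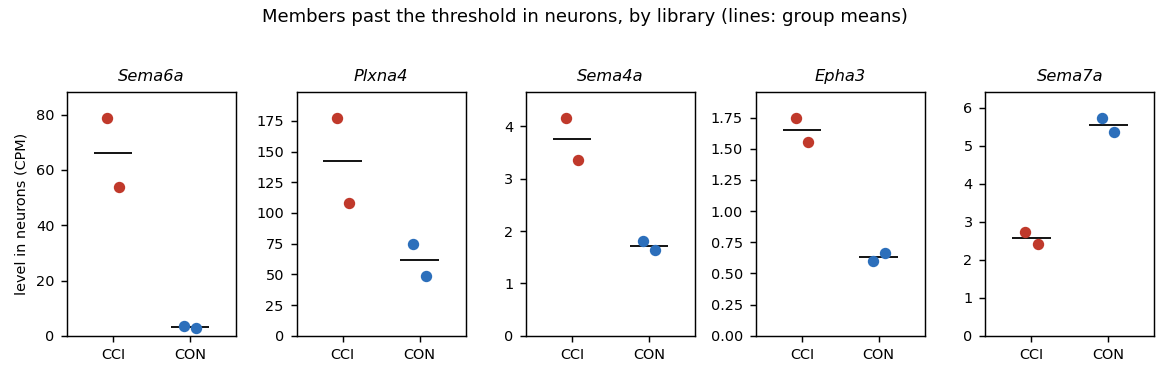
Level in neurons (CPM, a separate linear axis from 0 for each gene) of the 5 guidance genes that passed the test. Each point is 1 library and each line a group mean, with CCI on the left and CON on the right of each panel. The CCI and CON points do not overlap for any of the 5, and the gap is widest for Sema6a, at 78.8 and 53.8 CPM in CCI and 3.43 and 2.64 CPM in CON.

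The other 3 calls were lost under more of the settings than that of Plxna4. Sema4a (mm10, chr3:88435959-88461182) was at 4.16 and 3.37 CPM in CCI neurons, against 1.81 and 1.63 CPM in CON neurons, a log2 fold change of 1.20 ± 0.27 (SE, adjusted p = 0.0367, edgeR's quasi-likelihood test). The level of Sema4a was highest in immune cells. All 11 immune markers were detected in neurons, at a summed level of 10.6 and 48.4 CPM in CCI and 13.6 and 46.3 CPM in CON, which overlapped between the groups. The receptor Epha3 (mm10, chr16:63543532-63864175) was low, at 1.75 and 1.56 CPM in CCI neurons and 0.597 and 0.661 CPM in CON neurons (log2 fold change 1.48 ± 0.34, SE, adjusted p = 0.0425, edgeR). Sema7a fell to 2.74 and 2.42 CPM in CCI neurons, against 5.72 and 5.35 CPM in CON neurons (log2 fold change -1.02 ± 0.23, SE, adjusted p = 0.042, edgeR). None of the 3 overlapped between the groups. Their adjusted p ran over the 11 settings from 0.00184 to 0.162 for Sema4a, from 0.00239 to 0.154 for Epha3 and from 0.00558 to 0.225 for Sema7a, and they stayed past 0.05 in 9, 6 and 8 of them. Without CCI1 only Sema6a of the 61 passed, without CCI2 Sema6a and Plxna4, without CON1 6 genes and without CON2 10 genes.

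CIP-like neurons made up 21.8% and 22% of the neurons in the CCI libraries and held 31.1% and 28.4% of their UMIs, and their levels were set against the other neurons of the same libraries. Sema6a was at 166 and 133 CPM in CIP-like neurons, 4.22 and 6.02 times the other neurons. Plxna4 was at 322 and 213 CPM in CIP-like neurons, 2.88 and 3.21 times the others. Of the 61 ligands and receptors with at least 30 UMIs, 5 were over 2 times higher in CIP-like neurons in both libraries, the others being Efna4, Sema4a and Plxnb1, which is 8.2%, beside 4.59% of all 15395 genes with as many UMIs. Another 20 were lower by more than 2 times in both, which is 32.8%, beside 15.1% of all genes. The lower ones included the ligands Sema5a, at 0.0435 and 0.0697 times the other neurons, Slit2, at 0.0997 and 0.0769 times, and Sema7a, at 0.153 and 0.165 times, and the receptors Nrp1, at 0.271 and 0.218 times, and Nrp2, at 0.23 and 0.215 times. Since the clusters were formed on these cells, these ratios carry no test.

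Outside the CIP-like neurons, 60 ligands and receptors could be tested and 1 passed, Sema6a, beside 1.27% of all 15276 genes. At an unadjusted p under 0.05 there were 7 of the 60, or 11.7%, beside 9.43% of all genes. Sema6a was at 39.3 and 22.2 CPM in these neurons in CCI, against 3.31 and 1.96 CPM in CON, a log2 fold change of 3.55 ± 0.32 (SE, adjusted p = 0.00107, edgeR's quasi-likelihood test) that passed in 13 of 13 settings. These neurons include 3 clusters that stayed unnamed for few UMIs, with 262 and 164 cells in CCI and 125 and 24 in CON, of which the largest, with 299 cells, had CIP markers. Without the 3 clusters the log2 fold change of Sema6a was also 3.55 (adjusted p = 0.00198, edgeR). Sema5a passed there as well without CON1, which gave 2 in all. Plxna4 was at 112 and 66.3 CPM in CCI and 74.2 and 46.7 CPM in CON there, an overlap between the groups, and did not pass (log2 fold change 0.58 ± 0.27, SE, adjusted p = 0.556). The values of the other 3 also missed the threshold there, with log2 fold changes of 1.66 for Epha3 (adjusted p = 0.0646, edgeR), 0.67 for Sema4a (adjusted p = 0.531) and -0.67 for Sema7a (adjusted p = 0.379).

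Within named subtypes, Sema6a was higher in both CCI libraries than in both CON libraries in 7 of the 8 subtypes present in both groups, NP2-like neurons being the exception. NF2-like neurons held 148 and 81 CPM in CCI and 17.8 and 6.27 CPM in CON. PEP2-like neurons held 116 and 57.3 CPM in CCI and 14.4 and 16.8 CPM in CON, and SST-like neurons 43.7 and 30 CPM in CCI and 1.17 and 0 CPM in CON. The levels were thus highest in the NF2-like and PEP2-like neurons in both groups. The NP2-like neurons, at 7.11 and 0.772 CPM in CCI and 4.7 and 0 CPM in CON, overlapped between the groups.

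**Figure D5:**
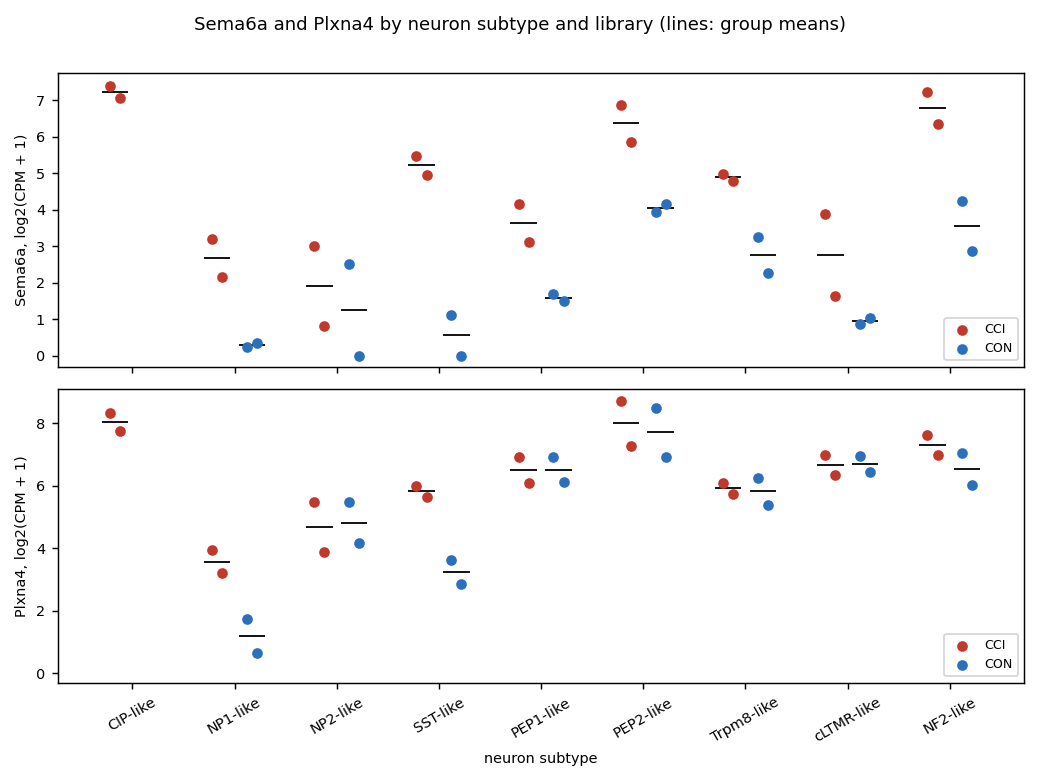
Sema6a (upper panel) and Plxna4 (lower panel) in each neuron subtype, as log2(CPM + 1). Each point is 1 library and each line a group mean, with CCI left of CON. Sema6a is higher in CCI without overlap in 7 of 8 subtypes, while Plxna4 overlaps between the groups in 6 of them, all but NP1-like and SST-like neurons.

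NP1-like, PEP1-like and cLTMR-like neurons had at least 20 cells in every library and were tested. In NP1-like neurons 35 ligands and receptors were tested and 2 passed, beside 0.381% of all genes, with 6 at an unadjusted p under 0.05, beside 7.26% of all genes. Sema6a was at 8.23 and 3.44 CPM in CCI and 0.192 and 0.281 CPM in CON (log2 fold change 4.71 ± 0.61, SE, adjusted p = 0.00765, edgeR's quasi-likelihood test), and without CCI1 it stood at an adjusted p of 0.0501. Plxna4 was at 14.3 and 8.22 CPM in CCI NP1-like neurons, against 2.31 and 0.562 CPM in CON ones, the lowest Plxna4 of any subtype (log2 fold change 2.84 ± 0.46, SE, adjusted p = 0.0275, edgeR), and passed in 8 of 8 settings. The NP1-like neurons of CON1 and CON2 held 15613542 and 7115660 UMIs in all. Their Sema6a levels, and the Plxna4 level in CON2, therefore rest on very few UMIs, and the size of these fold changes is uncertain. Whether RNA of other neurons, such as the CIP-like ones, was part of the NP1-like levels was not tested. In PEP1-like neurons 0 of 46 passed, beside 0.0995% of all genes, and 1 had an unadjusted p under 0.05 in edgeR, beside 4.53% of all genes. It was Sema6a, at 16.8 and 7.61 CPM in CCI and 2.26 and 1.81 CPM in CON (log2 fold change 2.62, adjusted p = 0.121). In cLTMR-like neurons 0 of 32 passed, beside 0.0533% of all genes, and 1 had an unadjusted p under 0.05 in edgeR, beside 3.54% of all genes, again Sema6a (log2 fold change 2.95, adjusted p = 0.591). Plxna4 was level between the groups in these subtypes, at 120 and 67.9 CPM in CCI and 120 and 68.2 CPM in CON PEP1-like neurons, with log2 fold changes of 0.06 ± 0.32 (SE) in PEP1-like and -0.04 ± 0.22 (SE) in cLTMR-like neurons. Without CON1, 3 passed in PEP1-like neurons (Nrp2, Ntn5 and Sema6a), and without CON2 or without CCI2 1 passed there, Sema6a, which was also the 1 that passed in cLTMR-like neurons without CCI2. DESeq2 was not run on the subtypes.

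In the other cell types no ligand or receptor passed by edgeR's quasi-likelihood test. In satellite glia 0 of 55 passed, beside 0.00764% of all genes, with 4 at an unadjusted p under 0.05 (2.89% of all genes) and 0 by DESeq2. Those 4 were Nrp1, with a log2 fold change of 0.99, Ntn4 with -1.07, Ephb1 with -1.16 and Sema4b with -0.63. In fibroblasts 0 of 38 passed, beside 0% of all genes, with 5 at an unadjusted p under 0.05 (4.93% of all genes) and 0 by DESeq2. The 5 were Slit3 at -1.57, Sema3c at -1.87, Slit2 at -1.29, Sema3d at -1.11 and Sema5a at -1.03 on the log2 scale, all lower in CCI, at an adjusted p of 0.872 each. The count of CON2 fibroblasts was only 45 cells. In Schwann cells 0 of 43, in endothelial cells 0 of 42 and in non-myelinating Schwann cells 0 of 36 passed, beside 0% of all genes in each, with 0 by DESeq2. None of these had an unadjusted p under 0.05 by edgeR, beside 2.48% of all genes in Schwann cells, 3.18% in endothelial cells and 2.08% in non-myelinating Schwann cells. In pericytes 0 of 31 and in immune cells 0 of 20 passed by edgeR, beside 0% of all genes in each, with 0 by DESeq2. At an unadjusted p under 0.05 there were 2 in pericytes, Epha4 at 3.17 and Sema6a at 1.41 on the log2 scale, beside 1.88% of all genes, and 2 in immune cells, Sema4b at -1.22 and Sema7a at -1.53, beside 3.62%. Cells of these types had fewer UMIs than neurons, so a change of the size seen for Plxna4 in neurons may not have been detectable in them. Without CON1, Sema3c passed in fibroblasts and Sema4f and Ephb1 in non-myelinating Schwann cells.

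Whether the change in neurons differed from that in another cell type was tested by an interaction term. For Sema6a the CCI effect in neurons exceeded that in fibroblasts by 4.28 ± 0.42 (SE) on the log2 scale (adjusted p = 0.00255, edgeR's quasi-likelihood test), where 0.131% of all genes passed, and fibroblasts held 36.4 and 31.1 CPM in CCI and 38.7 and 30.7 CPM in CON. The difference was 4.37 against satellite glia (adjusted p = 0.3, edgeR) and 3.94 against endothelial cells (adjusted p = 0.278, edgeR), and did not pass. Against Schwann cells, pericytes, immune cells and non-myelinating Schwann cells it lay between 2.68 and 3.30, with adjusted p from 0.776 to 1. No other ligand or receptor passed in these 7 comparisons by edgeR, where 0% of all genes passed against 5 of the cell types and 0.0193% against immune cells. At an unadjusted p under 0.05 there were 7 of 65 ligands and receptors against satellite glia (2.93% of all genes), 3 of 65 against Schwann cells (1.71%), 10 of 64 against fibroblasts (4.37%) and 2 of 64 against pericytes (1.87%). There were also 3 of 63 against immune cells (2.99%), 6 of 66 against endothelial cells (3.32%) and 5 of 64 against non-myelinating Schwann cells (1.38%), and DESeq2 was not run on these. Without CON1, Sema6a passed against all 7 cell types, with 1 to 7 ligands and receptors past the threshold in each. Immune cells held Sema6a at 34.1 and 8.91 CPM in CCI and 4.58 and 6.06 CPM in CON, and the part of free neuronal RNA in these levels was not tested.

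Of the co-receptors and effectors of axon guidance outside these families, 45 of a fixed list were tested in neurons, and 4 rose and 0 fell by edgeR, or 8.89%, beside the 5.21% of all genes given above. Flrt3, a membrane protein that binds robo and Unc5 receptors, was at 159.9 and 114.8 CPM in CCI and 22.1 and 12.6 CPM in CON (log2 fold change 3.06 ± 0.28, SE, adjusted p = 0.000495, edgeR). Chl1, a cell adhesion molecule of the L1 family, was at 102.8 and 94.5 CPM in CCI and 38.8 and 28.9 CPM in CON (log2 fold change 1.63, adjusted p = 0.00173, edgeR). Rnd1, whose protein binds plexins, was at 2.09 and 2.22 CPM in CCI and 0.398 and 0.278 CPM in CON (log2 fold change 2.72, adjusted p = 0.00349, edgeR). Crmp1, a mediator of semaphorin 3A signaling, was at 144.7 and 106.7 CPM in CCI and 76.1 and 67.8 CPM in CON (log2 fold change 0.88, adjusted p = 0.0336, edgeR). The groups did not overlap for any of these 4, and Flrt3, Chl1 and Rnd1 also passed in neurons outside the CIP-like clusters by edgeR. Flrt3 is itself one of the 5 markers by which CIP-like clusters were named. Outside those clusters Flrt3 passed in 13 of 13 alternative settings. Chl1 passed there in 9, and its adjusted p by edgeR was 0.127 without CCI1, 0.203 without CCI2, 0.0961 without CON2 and 0.0505 with clusters made without integration. Rnd1 passed there in 11, with an adjusted p by edgeR of 0.103 without CCI2. Over all neurons Crmp1 passed in 9 of 11 settings, with an adjusted p by edgeR of 0.257 without CCI1 and 0.056 without CCI2.

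The ligands and receptors can be set side by side, with the ligands ranked over cell types and the receptors over neuron subtypes only. Sema7a was highest in the endothelium and its receptor Plxnc1 in NP1-like, NP2-like and SST-like neurons. Sema3b was highest in Schwann cells and satellite glia. Among neuron subtypes Nrp1 was highest in cLTMR-like and Nrp2 in PEP2-like neurons, but endothelial cells held more Nrp1 than any neuron subtype. Over whole cell types Slit3 was highest in pericytes and Slit2 in Schwann cells in CCI and in fibroblasts in CON. Robo2 was highest in NF2-like and cLTMR-like neurons. The NF2-like neurons themselves held Slit2 at 39.64 to 102.4 CPM, beside 15.91 to 89.35 CPM in fibroblasts and 13.73 to 48.95 CPM in Schwann cells. Sema6a was held by endothelial cells and satellite glia in both groups and by CIP-like, NF2-like and PEP2-like neurons in CCI. Plxna4 was highest in PEP2-like neurons, at 417 and 156 CPM in CCI and 358 and 121 CPM in CON, and in CIP-like neurons in CCI. NF2-like neurons came next for Plxna4, at 64.81 to 197.1 CPM over the libraries, a range that overlapped that of PEP2-like neurons. With clusters made without integration, NF2-like neurons led for it instead. These are levels of transcripts, and no binding or signaling was measured.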

How the data were processed

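The authors trimmed reads with fastp and deposited raw UMI counts per gene and barcode from Cell Ranger 5.0.1 (mm10, Chromium 3′ kit), and these deposited counts, whole numbers with no normalization, were used here. Any reads of free RNA are counted in these matrices, and the downsampling that the study describes comes after them. Of 37451 barcodes, the 35113 with over 500 genes and a mitochondrial share under 20% were kept. No doublet caller was run. Total UMIs were 135009606 and 113530798 in CCI, against 75599766 and 52074235 in CON. Cells were clustered in Seurat 5.3.0 (sctransform 0.4.2, 2000 features without the guidance genes, 10 components, resolution 0.8), and clusters were named where at least 3 markers of a fixed list were over 1.5 times the other cells, a cutoff set after the clusters were seen. Barcodes with neuron markers but few UMIs were kept apart from neurons, and 3 neuron clusters with few UMIs stayed unnamed but were counted as neurons, also outside the CIP-like clusters. A further 3 clusters of low depth kept the names NP1-like, PEP1-like and cLTMR-like, since at least 1 marker of the subtype was among their top 10 genes. A cluster that met the CIP list was called CIP-like whatever else it met. UMIs were summed per library and cell type, with at least 20 cells a library, and tested in edgeR 4.0.16 (R 4.3.3, TMM, low-count filter, quasi-likelihood test, Benjamini-Hochberg adjustment over all genes tested), with DESeq2 1.42.0 as an alternative. Non-myelinating Schwann cells were added to the cell types planned. The test was checked on simulated data, where it recovered 63% of 2-fold and 100% of 4-fold changes in neurons. In satellite glia it recovered only 3% of 2-fold and 47% of 4-fold changes. Gene positions are from the RefSeq annotation of GRCm38.p6. The guidance genes, marker lists and effector list were chosen with earlier results of these data known. Genes named are those that passed a test and the 4 with the highest level in any cell type in each of 6 families, and others were named after their values were seen. Alternatives were other scaling factors, no low-count filter, a stricter cell filter (over 1000 genes, under 10% mitochondrial UMIs), clusters without integration (scanpy 1.11.5), low-UMI barcodes added, a replicate block and leaving out each library, and, chosen after seeing the data, leaving out the unnamed or all low-depth neuron clusters. The labels and the methods describe different tissue digestions. No sequence of these genes was used here.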

Additional observations from a re-analysis of the deposited data

Results flagged for a closer look

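The CCI effect on Sema6a in neurons exceeded that in fibroblasts by 4.28 on the log2 scale (adjusted p = 0.00255, edgeR's quasi-likelihood test of the interaction), which makes it a difference between cell types under the same comparison. Neurons of both CCI libraries were above both CON libraries, while fibroblasts overlapped between the groups.

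Barcodes with neuron markers but few UMIs were kept out of the comparisons reported, and entered only the alternative that added them to the neurons. Sema6a was at 120 and 69 CPM in these barcodes of the CCI libraries, against 8.43 and 6.46 CPM in those of the CON libraries, with no overlap. Plxna4 was at 174 and 53.9 CPM in CCI, against 44.6 and 11.6 CPM in CON, also with no overlap. The part of free neuronal RNA in these barcodes was not tested.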

How the results depend on the processing

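The design has 2 libraries a group, the exact permutation test of 2 against 2 cannot go below p = 0.333, and CON2 holds 254 neurons. No result reversed under any alternative. The count of ligands and receptors called in neurons was 5 with upper-quartile factors, 6 with DESeq2 (with Sema3e), 4 with the stricter cell filter or with low-UMI barcodes added (both without Epha3) and 5 with clusters made without integration (without Sema7a, with Efna4). With no low-count filter it was 8, among 1821 genes. Outside the CIP-like clusters, DESeq2 called 2 of them and 304 genes, and no filter 3 and 681 genes. Without the unnamed neuron clusters, and without all low-depth neuron clusters, both chosen after seeing the data, 1 was called there (Sema6a), among 161 and 157 genes, and the counts in NP1-like, PEP1-like and cLTMR-like neurons stayed at 2, 0 and 0. Genes called by DESeq2 numbered 33 in satellite glia, 8 in Schwann cells, 27 in fibroblasts, 10 in pericytes, 15 in immune cells, 16 in endothelial cells and 7 in non-myelinating Schwann cells. With no filter they numbered 3, 48, 174, 49, 81, 6 and 111 in the same order, with 1 ligand called in fibroblasts (Sema3c) and 1 in pericytes (Sema4c). With no filter 1 ligand or receptor was also called in PEP1-like and in cLTMR-like neurons, and in the difference of effects 2 against fibroblasts and 1 each against pericytes, endothelial cells and non-myelinating Schwann cells. The cause of these changes was not tested.

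The leading cell type of a ligand was the same as in the clusters used for 35 of 35 ligands under the stricter filter and 30 of 35 without integration, and the leading subtype for 29 and 24 of 30 receptors.

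Same-numbered libraries deviated together in neurons (correlation 0.444 over 10136 genes), but there are only 2 pairs and no label says what a number shares. With the replicate number as a block, 15 ligands and receptors were called among 1877 genes in neurons, 4 among 674 genes outside the CIP-like clusters and 1 in PEP1-like neurons. The replicate block gave 3 genes in satellite glia and 1 gene in non-myelinating Schwann cells, and in the difference of effects 1 ligand or receptor against satellite glia, Schwann cells and endothelial cells each, 2 against pericytes, immune cells and non-myelinating Schwann cells each, and 4 against fibroblasts.

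Leaving out each library in turn, with the lone library of its group assumed to vary like the other group, gave 1 to 10 ligands and receptors and 470 to 1779 genes in neurons, both counts lower without either CCI library than without either CON library, and 1 to 2 and 91 to 292 outside the CIP-like clusters. In NP1-like neurons it gave 1 to 2, in PEP1-like 0 to 3 and in cLTMR-like 0 to 1. Elsewhere it gave 0 to 4 genes in satellite glia, 0 to 145 in Schwann cells, 0 to 100 in fibroblasts (0 to 1 ligand or receptor), 0 to 1 in pericytes, 0 to 8 in immune cells and 0 to 215 in non-myelinating Schwann cells (0 to 2). In the difference of effects it gave 0 to 7 against Schwann cells, 0 to 5 against endothelial cells, 1 to 5 against fibroblasts, 0 to 3 against immune cells, 0 to 4 against non-myelinating Schwann cells and 0 to 1 against pericytes and satellite glia each.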

Other observations

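Neurons also held ligands, and these differed by subtype. They are given as values with no test, and were picked after their values were seen, by the subtype with the highest mean of the 4 libraries. Sema5a was at 174 and 126 CPM in CCI PEP2-like neurons and 202 and 254 CPM in CON ones, while CIP-like neurons lay far below the other CCI neurons for it. In NF2-like neurons it was at 35.6 and 24.1 CPM in CCI and 23 and 25.1 CPM in CON. The cLTMR-like neurons led for Slit1, a robo ligand, at 44.5 and 36.5 CPM in CCI and 44.6 and 31.7 CPM in CON, and for Efnb1, at 40.9 and 46.6 CPM in CCI and 38.6 and 34.3 CPM in CON. Slit1 overlapped between the groups, and Efnb1 was higher in both CCI libraries than in both CON libraries. For Slit1 the NF2-like neurons overlapped the cLTMR-like ones, at 11.15 to 44.92 CPM over the libraries. For Sema3e and Efna5 the cLTMR-like neurons exceeded the leading cell type, with no overlap between libraries. Sema3e was at 50.1 to 65.3 CPM in them, against 20.3 to 37.2 CPM in non-myelinating Schwann cells. Efna5 was at 47.5 to 56.7 CPM, against 21.2 to 30.7 CPM in fibroblasts, but NF2-like neurons overlapped the cLTMR-like ones at 32.62 to 53.27 CPM. For Efnb1 the cLTMR-like neurons stayed below fibroblasts. Sema4f, a transmembrane semaphorin, was at 135 and 115 CPM in CCI NF2-like neurons and 81.5 and 57.1 CPM in CON ones. The groups did not overlap, and NF2-like cells were too few in CON2 for a test. PEP2-like neurons overlapped the NF2-like ones for Sema4f, at 43.66 to 110 CPM over the libraries, and had the higher CON mean.

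Efna4, a GPI-anchored ephrin, was 10.7 and 8.47 times higher in CIP-like neurons than in the other neurons of the CCI libraries. Over all neurons it was at 0.707 and 0.796 CPM in CCI and 0.177 and 0.278 CPM in CON, which did not overlap and did not pass the test (log2 fold change 1.84, adjusted p = 0.0608, edgeR's quasi-likelihood test).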
